A study of Homo sapiens with 6 samples.

Results

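The 10 genes of the Notch pathway and the segmentation clock described here were followed from undifferentiated human embryonic stem cells (hESCs) to neuromesodermal progenitor-like (NMP-L) cells: the receptors NOTCH1, NOTCH2 and NOTCH3, the ligands DLL1, DLL3 and JAG1, the receptor-modifying enzyme LFNG, and the target genes HES1, HES5 and HES7. They were chosen by symbol, and all 10 were found among the 27672 genes of the deposited table. The series holds 6 RNA-seq libraries of polyadenylated RNA, with 3 biological replicates of hESCs (day 0) and 3 of NMP-L cells (day 3). Both groups are the H9 line, an established human embryonic stem cell line, so that 1 genetic background is sampled, and the labels name no altered gene. According to the labels, hESCs were untreated and grew without feeder cells on fibronectin, in DEF medium to which bFGF (30 ng/ml) and Noggin (10 ng/ml) were added. NMP-L cells were made over 3 days in neurobasal medium (N2/B27) with bFGF (20 ng/ml) and with 3 µM of CHIR99021, a compound that activates Wnt signalling. The study's methods instead describe TESR medium and Geltrex for hESCs, so the medium of the hESCs is uncertain. They also add Noggin and the TGFβ inhibitor SB431542 from day 2 for cells taken on to neural progenitors. Day 3 falls after that start, so whether the NMP-L cells received these inhibitors is uncertain too. Medium, added factors and time differ together between the groups and cannot be told apart.

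Notch signalling passes between touching cells. A ligand of the Delta or Jagged family on one cell engages a Notch receptor on the next, the receptor is cut by ADAM proteases and then by gamma-secretase, and its freed intracellular part joins the DNA-binding protein RBPJ and the Mastermind coactivators to switch on HES and HEY genes, which encode transcriptional repressors. In the presomitic mesoderm of the embryo the same pathway runs in cycles: HES7 represses its own transcription and that of LFNG, and this segmentation clock, together with Wnt and FGF signalling, spaces the somites. In neural progenitors, HES1 and HES5 hold back proneural genes. Neuromesodermal progenitors lie where both tissues arise. Each library here averages over many cells at 1 time, so cycling itself cannot be read from these data.

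The promoters of the 3 HES genes are shown first, because RBPJ is known to act on its targets through a short motif, which they hold or lack. RefSeq promoter sequences were at hand for 8 of the 10 genes (not for DLL1 and DLL3), and the 250 bases before the annotated start are printed 5′ to 3′ on the strand of the gene, placed on GRCh37 by an exact match. Capitals mark the RBPJ core motif GTGGGAA or its reverse complement TTCCCAC.
HES1, chr3:193853687-193853936, plus strand: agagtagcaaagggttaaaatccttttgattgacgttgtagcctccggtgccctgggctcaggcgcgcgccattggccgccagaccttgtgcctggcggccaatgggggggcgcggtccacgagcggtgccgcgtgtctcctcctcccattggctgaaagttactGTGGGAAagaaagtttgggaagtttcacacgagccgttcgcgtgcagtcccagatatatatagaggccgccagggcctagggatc
HES5, chr1:2461703-2461952, minus strand: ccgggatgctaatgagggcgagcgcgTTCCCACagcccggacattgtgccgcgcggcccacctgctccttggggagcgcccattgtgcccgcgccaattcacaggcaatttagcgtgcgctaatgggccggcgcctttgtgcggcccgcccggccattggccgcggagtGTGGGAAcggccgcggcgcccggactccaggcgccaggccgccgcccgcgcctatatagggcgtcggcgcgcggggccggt
HES7, chr17:8027425-8027674, minus strand: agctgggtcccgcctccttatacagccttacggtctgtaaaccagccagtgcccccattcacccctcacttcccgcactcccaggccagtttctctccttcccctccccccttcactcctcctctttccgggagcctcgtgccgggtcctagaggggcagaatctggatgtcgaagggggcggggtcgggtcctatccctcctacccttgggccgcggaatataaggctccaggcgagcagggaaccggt
HES1 held 1 match, from 85 to 79 bases before the start, and HES5 held 2, one from 81 to 75 and one from 224 to 218 bases before it. The HES7 window held none, and neither did the windows of NOTCH1, NOTCH2, NOTCH3, JAG1 or either of the 2 windows of LFNG. Of 34788 distinct RefSeq windows of the same length, 5.4% held the motif on either strand. The motif CACGCG, known as a binding site of HES repressors, was found 2 times in the HES1 window, in its reverse complement CGCGTG, and 0 times in the others (9.7% of all windows held it). The E box CACGTG and the TCF/LEF motif CTTTGA, searched for on both strands, were found in 0 of the 9 windows, against 6.31% and 11.2% of all windows. A match describes these letters only.

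Values are RSEM expected counts, which estimate how many reads came from each gene. They totalled between 19454543 and 23036426 per library, and 3 counts were taken as the limit of detection. In CPM, read counts scaled to one common library size, this limit lay between 0.130 and 0.154. CPM below are scaled by the TMM method, which sets the libraries on a common scale through genes that change little. Differences were tested across all genes with edgeR's quasi-likelihood test, and a gene was called where its p-value, adjusted by the Benjamini-Hochberg method, lay under 0.05. The labels were checked on 4 marker genes. T (Brachyury), a mesodermal transcription factor of neuromesodermal progenitors, had 0, 0 and 2 counts in hESCs and 537, 293 and 629 in NMP-L cells, SOX2 did not pass the threshold (log2 fold change 0.06, adjusted p = 0.53), and the pluripotency genes NANOG and POU5F1 were lower in NMP-L cells (-2.59 and -0.92). Of the 15517 genes tested, 55.8% passed the threshold, 4512 higher and 4142 lower in NMP-L cells. Relative to the counts of GAPDH, the reference gene of the study's RT-qPCR, the split was 10027 higher and 1429 lower, and relative to HPRT1 it was 1793 higher and 5294 lower. These scalings moved the median log2 fold change of all tested genes from 0.03 to 0.59 and -0.27. With TMM scaling GAPDH itself was lower in NMP-L cells (log2 fold change -0.55, adjusted p = 0.00014 from edgeR). HPRT1 was at 0.28 and did not pass the threshold (adjusted p = 0.069).

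The 3 receptors fell, LFNG and DLL3 fell, and DLL1, JAG1 and the 3 HES genes rose between hESCs and NMP-L cells. All 10 genes passed the threshold, 5 higher and 5 lower, where 55.8% of all tested genes passed it, 29.1% higher and 26.7% lower. The changes of at least 2-fold were those of DLL3 and LFNG downwards and of HES5 and HES7 upwards, 4 of 10, against 18.6% of all tested genes (9.38% upwards and 9.18% downwards). For all 10 genes the CPM of the groups did not overlap, which was so for 61.6% of all tested genes. Two-sided exact permutation tests on log2 CPM gave p = 0.1 for each gene, the smallest value that 3 libraries against 3 allow. Relative to GAPDH 5 rose and 4 fell, with NOTCH2 no longer past the threshold, and relative to HPRT1 3 rose and 5 fell, with JAG1 and HES1 no longer past it. In libraries made from whole cultures, fewer cells expressing a gene and less RNA of it per cell cannot be told apart.

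**Figure D1:**
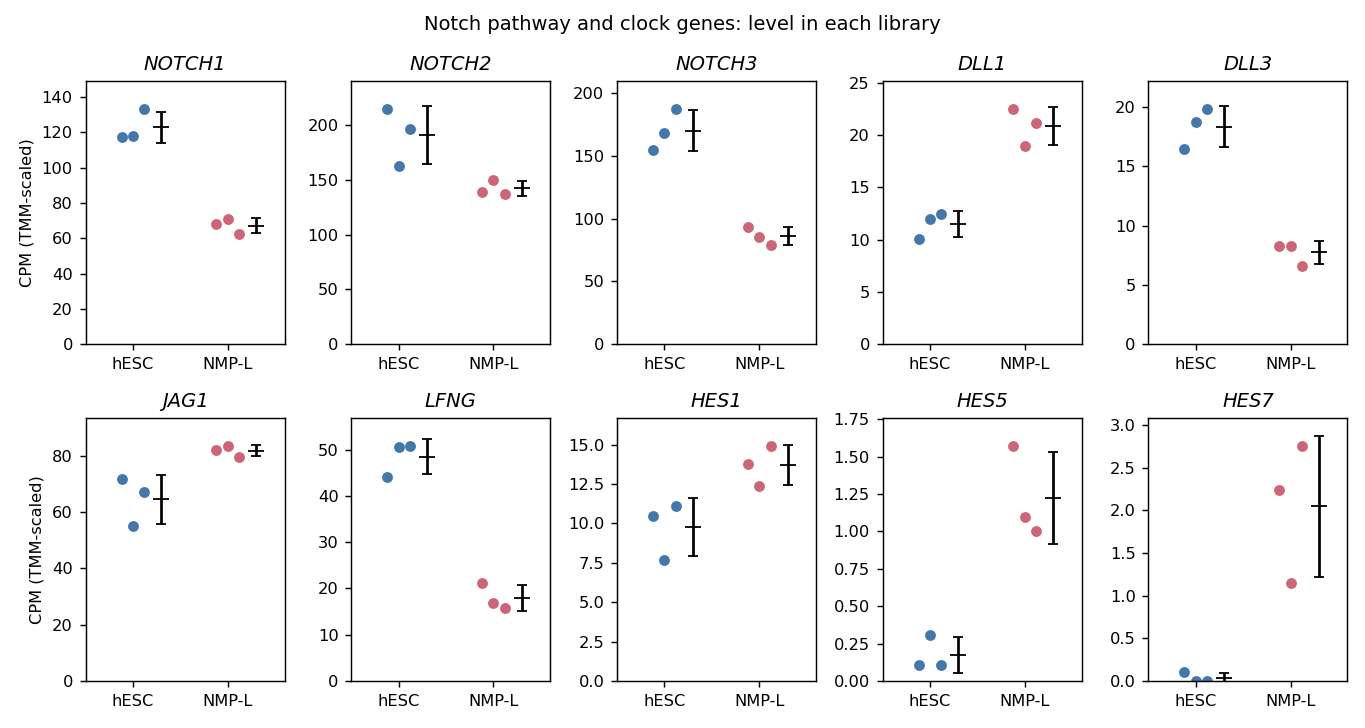
Level of each of the 10 genes in CPM (TMM-scaled, vertical axes from 0) in the 3 hESC and 3 NMP-L libraries (points, replicates 1 to 3 from left to right), with mean and SD (n = 3) beside them. The receptors, DLL3 and LFNG are lower and the other 5 genes higher in all NMP-L libraries than in any hESC library, with the narrowest gap, as a ratio, for NOTCH2 (162 against 150 CPM).

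NOTCH1, on chromosome 9 of GRCh37 from 139388885 to 139440500, encodes the receptor best known from embryonic patterning. Its expected counts were 2202, 2290 and 2549 in hESCs and 1511, 1486 and 1497 in NMP-L cells. All 3 NMP-L libraries were lower than the hESC libraries. The level fell from 123 ± 8.88 to 67.0 ± 4.19 CPM (SD, n = 3 each), or by -0.87 on the log2 scale (standard error 0.09, adjusted p = 7e-06 from edgeR). NOTCH3, on chromosome 19 from 15269849 to 15311806, encodes a receptor known from vascular smooth muscle and neural progenitors. Counts were 2898, 3268 and 3587 in hESCs and 2078, 1794 and 1896 in NMP-L cells, again without overlap. It fell from 170.0 ± 16.3 to 86.0 ± 7.04 CPM (SD, n = 3), by 0.98 on the log2 scale (standard error 0.10, adjusted p = 5.2e-06 from edgeR).

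NOTCH2 changed least among the receptors. The gene lies on chromosome 1 from 120454176 to 120643366, and its counts were 4013, 3157 and 3753 in hESCs against 3090, 3149 and 3282 in NMP-L cells. The unscaled counts of hESC replicate 2 lay within the NMP-L range, whereas the scaled levels did not overlap (191 ± 26.3 against 142 ± 7.08 CPM, SD, n = 3). The log2 fold change was -0.43 (standard error 0.10, adjusted p = 0.0037 from edgeR), and it turned to 0.13 relative to GAPDH counts (adjusted p = 0.4). NOTCH2 was the only one of the 10 genes with fractional expected counts, the sign of reads shared with another gene. NOTCH2NL, a partial copy of NOTCH2 with near-identical sequence, had between 235 and 307 counts in hESCs and between 363 and 465 in NMP-L cells and rose by 0.38 on the log2 scale (adjusted p = 0.027), a call that was lost relative to HPRT1 counts (0.09). The split of reads between both genes is uncertain. With both counted together, a setting chosen after seeing the data, the fall was -0.36 (adjusted p = 0.0099).

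To compare levels between genes, the deposited TPM were used, which are scaled by transcript length and library total. The summed TPM of NOTCH1 to NOTCH4 was 103.49, 94.21 and 110.67 in hESCs and 65.82, 66.25 and 64.37 in NMP-L cells, so the groups were well apart (two-sided exact permutation test p = 0.1). This sum depends on the scaling between libraries and was not recomputed relative to GAPDH or HPRT1 counts. In TPM its make-up moved less than its size. NOTCH2 held 32.5% ± 3.86 of it in hESCs and 40.6% ± 1.71 in NMP-L cells, and NOTCH3 41.3% ± 2.96 and 35.0% ± 1.82 (SD, n = 3, exact permutation p = 0.1 for each). NOTCH1 held 25.8% ± 0.767 and 23.6% ± 0.471 (exact permutation p = 0.1). NOTCH4, the remaining receptor, held under 1% in every library, and its log2 fold change was 0.13 (adjusted p = 0.73).

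The Delta ligands DLL1 and DLL3 moved in opposite directions. DLL1, an activating ligand of the presomitic mesoderm and the neural tube, lies on chromosome 6 from 170591294 to 170615653. Its counts were 189, 233 and 238 in hESCs and 501, 398 and 507 in NMP-L cells. Every NMP-L library was above every hESC library, and the level rose from 11.5 ± 1.24 to 20.9 ± 1.78 CPM (SD, n = 3; log2 fold change 0.86, standard error 0.12, adjusted p = 0.00011 from edgeR). The gene overlaps FAM120B on the other strand, and whether reads were counted by strand is not given in the sources used here. FAM120B had between 506 and 552 counts in hESCs and between 683 and 753 in NMP-L cells, with a log2 fold change of 0.21 that did not pass the threshold (adjusted p = 0.073).

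DLL3 is a divergent ligand that stays largely inside the cell, does not activate receptors on neighbouring cells and is needed for regular somites. The gene lies on chromosome 19 from 39989535 to 39999121. Counts were 309, 365 and 380 in hESCs and 185, 174 and 159 in NMP-L cells, a fall in all libraries from 18.4 ± 1.71 to 7.75 ± 0.956 CPM (SD, n = 3). The log2 fold change was -1.25 (standard error 0.13, adjusted p = 1e-05 from edgeR). Within each library the ratio of DLL1 to DLL3 does not depend on the scaling between libraries. In TPM it was 0.388, 0.402 and 0.389 in hESCs and 1.678, 1.422 and 1.969 in NMP-L cells, so DLL3 was the more abundant of the pair in every hESC library and DLL1 in every NMP-L library (two-sided exact permutation test p = 0.1).

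JAG1, a ligand of the Jagged family on chromosome 20 from 10618332 to 10654647, was the most abundant ligand in every library by TPM. It had 1345, 1067 and 1284 counts in hESCs and 1828, 1751 and 1907 in NMP-L cells. The groups did not overlap, but the rise from 64.5 ± 8.73 to 81.7 ± 1.91 CPM (SD, n = 3) was smaller than the changes of the other genes with TMM scaling (log2 fold change 0.34, standard error 0.10, adjusted p = 0.014 from edgeR). It was 0.05 relative to HPRT1 counts (adjusted p = 0.86), and without NMP-L replicate 2 the adjusted p was 0.051. NOTCH2 changed less than JAG1 relative to GAPDH counts (0.13 against 0.90), with library size only (-0.35 against 0.42) and without hESC replicate 1 (-0.36 against 0.40). JAG2, its paralogue, fell by 1.08 on the log2 scale (standard error 0.13, adjusted p = 3.9e-05). The ratio of JAG1 to JAG2 in TPM lay between 3.122 and 4.717 in hESCs and between 9.053 and 11.217 in NMP-L cells.

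The summed TPM of the 5 ligands DLL1, DLL3, DLL4, JAG1 and JAG2 was 53.1 ± 3.91 in hESCs and 55.1 ± 1.24 in NMP-L cells (SD, n = 3). The ranges of the groups overlapped (two-sided exact permutation test p = 0.6). Such a sum depends on the scaling between libraries, and it was not recomputed relative to GAPDH or HPRT1 counts. The make-up of the sum changed. DLL3 held 34.1% ± 2.79 of the sum in hESCs and 15.0% ± 1.45 in NMP-L cells, and JAG2 11.1% ± 1.05 and 5.44% ± 0.467. In turn DLL1 held 13.4% ± 1.32 and 25.1% ± 1.895, and JAG1 41.1% ± 5.20 and 53.6% ± 1.56. DLL4, the ligand of blood vessels, held at most 1.17%. For each of these shares the groups did not overlap (SD, n = 3, exact permutation p = 0.1).

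**Figure D2:**
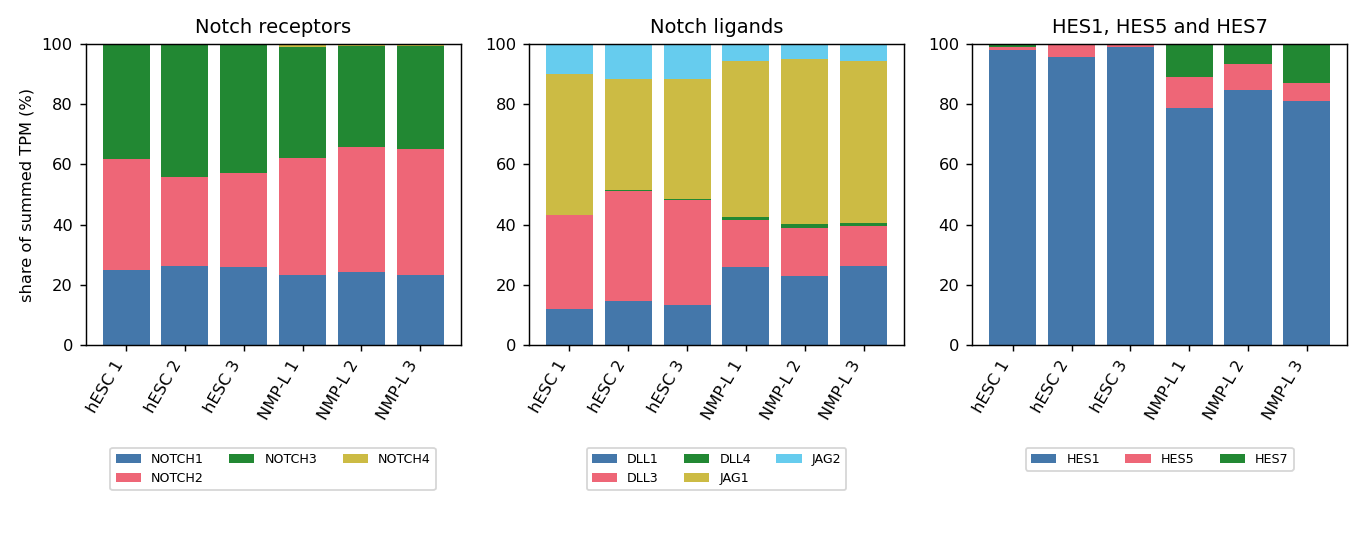
Share of each gene in the summed TPM of the receptors (left), the ligands (middle) and HES1, HES5 and HES7 (right), as stacked bars from 0 to 100% for each of the 6 libraries. DLL3 narrows from 34.1% to 15.0% of the ligands while DLL1 and JAG1 widen, and HES5 and HES7 become visible beside HES1 in the NMP-L libraries.

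LFNG encodes Lunatic fringe, a glycosyltransferase that adds sugars to Notch receptors and shifts their response between Delta and Jagged ligands, and it is a cyclic gene of the clock. The gene lies on chromosome 7 from 2552163 to 2568811. It was the most abundant of the 10 genes in hESCs, at 46.4 ± 2.62 TPM, and the fifth in NMP-L cells, at 18.6 ± 2.69 TPM (SD, n = 3). Counts were 828, 984 and 974 in hESCs and 470, 353 and 378 in NMP-L cells. This was the largest fall among the 10 genes (48.5 ± 3.76 to 17.9 ± 2.81 CPM, log2 fold change -1.44, standard error 0.12, adjusted p = 1.9e-06 from edgeR). Its fold change lay at percentile 5.3 of all tested genes. The other fringe enzymes did not pass the threshold, with log2 fold changes of 0.40 for MFNG and -0.17 for RFNG, both named after their values were seen.

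Of the HES genes, HES1 was expressed in both groups, while HES5 and HES7 were near or under the limit of detection in hESCs. HES1, on chromosome 3 from 193853937 to 193856521, is active in many progenitors and oscillates in several of them. It had 196, 149 and 213 counts in hESCs and 307, 260 and 357 in NMP-L cells. All NMP-L libraries were higher, and the rise was from 9.75 ± 1.83 to 13.7 ± 1.26 CPM (SD, n = 3, log2 fold change 0.49, standard error 0.15, adjusted p = 0.015 from edgeR). The adjusted p was 0.062 without hESC replicate 2, 0.054 without NMP-L replicate 3 and 0.51 relative to HPRT1 counts, with log2 fold changes of 0.34, 0.43 and 0.19.

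HES5, the Notch target most closely tied to neural progenitors, lies on chromosome 1 from 2460184 to 2461702. It had 2, 6 and 2 counts in hESCs and 35, 23 and 24 in NMP-L cells. The NMP-L libraries stood apart from the hESC libraries, of which only replicate 2 exceeded the limit of 3 counts. The level rose from 0.173 ± 0.117 to 1.22 ± 0.304 CPM (SD, n = 3, log2 fold change 2.77, standard error 0.44, adjusted p = 0.00025 from edgeR), and the fold is imprecise at such counts. Left-out libraries gave values between 2.5 and 2.94, the last, without hESC replicate 2, as a lower bound.

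HES7 is the core repressor of the somite clock, and in the embryo its transcripts are largely restricted to the presomitic mesoderm. The gene lies on chromosome 17 from 8023910 to 8027424. Counts were 2, 0 and 0 in hESCs and 50, 24 and 66 in NMP-L cells. No hESC library exceeded the limit of 3 counts, so the fold is a lower bound set against that limit in each library: the level of HES7 in NMP-L cells was higher by at least 13.1-fold (a log2 bound of 3.71, adjusted p = 3.3e-05 from edgeR). NMP-L replicate 2 had the lowest level, 1.14 CPM against 2.24 and 2.76 in the other NMP-L libraries, and the bound was 3.44 without replicate 3, the highest.

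In TPM, HES1 made up 97.5% ± 1.71 of the summed level of the 3 HES genes in hESCs and 81.5% ± 3.03 in NMP-L cells (SD, n = 3). HES5 then held 8.25% ± 2.00 and HES7 10.2% ± 3.15, without a difference between them beyond their spread. The sum itself was 15.84, 11.44 and 16.45 TPM in hESCs and 26.74, 22.31 and 29.92 TPM in NMP-L cells. It depends on the scaling between libraries and was not recomputed relative to GAPDH or HPRT1 counts. It leaves out HES2, HES3, HES4 and HES6. Of these, HES3 was above HES1 in both groups, at 41.6 TPM in hESCs and 182.6 TPM in NMP-L cells. The groups did not overlap in the sum or in any of the 3 shares (exact permutation p = 0.1 each). The ratio of HES1 to NOTCH1 in TPM, in which the scaling between libraries cancels, lay between 0.439 and 0.601 in hESCs and between 1.182 and 1.611 in NMP-L cells.

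The order of levels per transcript length differed between the groups. In hESCs LFNG (46.4 TPM) and NOTCH3 (42.4) overlapped at the top, followed by NOTCH2 (33.4) and NOTCH1 (26.5), which overlapped with each other, and by JAG1 (21.8) and DLL3 (18.1), which also overlapped. HES1 (14.2) and DLL1 (7.11) came next and were each apart from their neighbours. HES5 (0.283) and HES7 (0.0467) came last, near or under the limit of detection, so their order in hESCs is not resolved. In NMP-L cells JAG1 (29.5 TPM) stood first, above NOTCH2 (26.6). NOTCH3 (22.9) overlapped with HES1 (21.4), and HES1 with LFNG (18.6). NOTCH1 (15.5), DLL1 (13.8) and DLL3 (8.25) were each apart from the next, and HES7 (2.77) and HES5 (2.15) overlapped at the end.

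**Figure D3:**
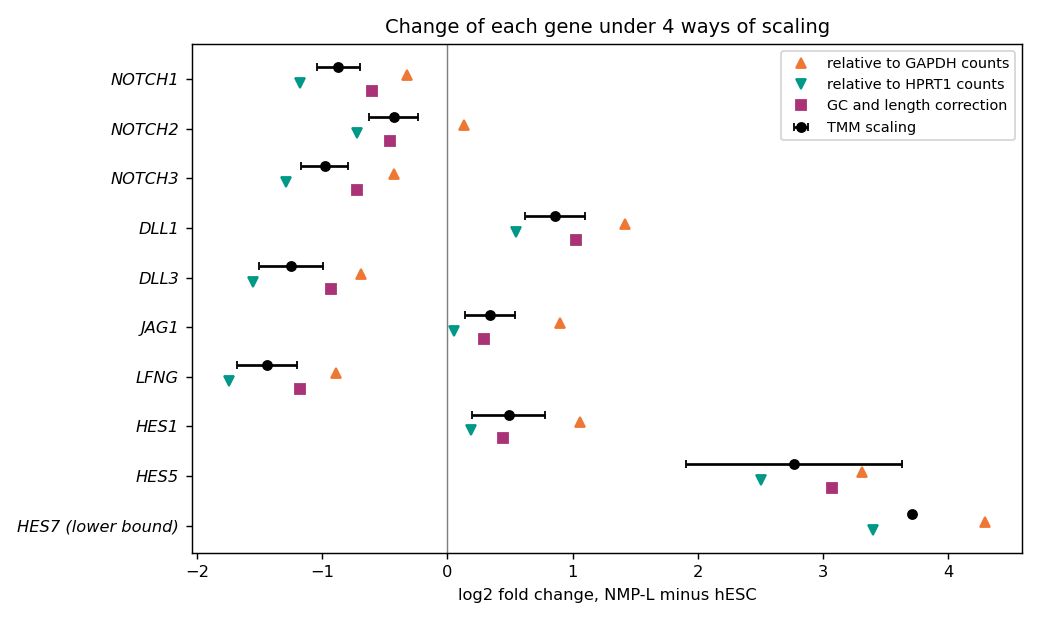
Log2 fold change (NMP-L minus hESC, horizontal axis) of each of the 10 genes with TMM scaling (black, with 95% intervals from the standard error), relative to GAPDH or HPRT1 counts, and corrected for the GC content and length of transcripts. NOTCH2 changes sign with GAPDH, JAG1 and HES1 come close to 0 with HPRT1, and HES7 is shown as a lower bound without interval and without the corrected value.

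The other genes of the pathway were grouped by their place in the cascade. Of 55 such genes 53 were tested, and 27 of these passed the threshold, 11 higher and 16 lower, a share near the 55.8% of all tested genes. Their median log2 fold change was -0.02, against 0.03 for all genes. The split depends on the scaling, with 34 higher and 5 lower relative to GAPDH counts and 5 higher and 19 lower relative to HPRT1 counts. With a correction for GC content and length 19 were higher and 22 lower, where 4960 of all 15517 tested genes were higher and 5116 lower.

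Among genes of the RBPJ complex, its coactivators and corepressors, 7 of 17 genes fell and 1 rose (10 rose and 3 fell relative to GAPDH counts). Of all tested genes 55.8% were called, 26.7% lower and 29.1% higher. RBPJ, the DNA-binding protein of the pathway, had 7194, 4951 and 5708 counts in hESCs and 2561, 2837 and 3660 in NMP-L cells, without overlap. It fell by 1.22 on the log2 scale (standard error 0.14, adjusted p = 2.6e-05 from edgeR). The coactivator MAML2 fell by 1.91 and the Groucho-type corepressor TLE2 by 1.73 (adjusted p = 2.4e-07 and 3.9e-07). These 3 genes were lower under every alternative tried, with RBPJ between -1.51 and -0.65.

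Among genes of receptor cleavage, 4 of 8 ADAM protease and gamma-secretase genes rose and 0 fell, where 55.8% of all tested genes were called (relative to HPRT1 counts 0 rose and 1 fell, and after correction for GC content and length 5 rose and 3 fell). ADAM10, the most abundant of them and the main protease of the outer receptor cut, had a log2 fold change of 0.06 that did not pass the threshold (adjusted p = 0.67). FURIN, the convertase that cuts the maturing receptor, was past the threshold at 0.85 (adjusted p = 5e-06). In all, 2 of 5 genes of receptor glycosylation and maturation rose and 0 fell, where 29.1% of all tested genes rose. Relative to GAPDH counts 5 of them rose, and relative to HPRT1 counts 1 did. Of 8 genes of receptor turnover, 5 fell and 0 rose, where 26.7% of all tested genes fell (3 rose and 1 fell relative to GAPDH counts, and 2 rose and 6 fell with the GC and length correction), among them NUMBL, a relative of the Notch inhibitor NUMB, at -1.10 (adjusted p = 6.6e-06). In ligand endocytosis 0 of 4 genes passed the threshold in edgeR with TMM scaling or in DESeq2, and 1 had an unadjusted edgeR p under 0.05 (1 rose relative to GAPDH counts, 2 fell relative to HPRT1 counts, and 1 fell with the GC and length correction). It was MIB1, a ubiquitin ligase needed for ligand uptake, which had a log2 fold change of -0.44 (adjusted p = 0.067). Without hESC replicate 2 it was -0.64 and past the threshold (adjusted p = 0.0088), and without hESC replicate 1 it was -0.22. Among the receptor and ligand paralogues, 2 of 4 tested genes rose and 1, JAG2, fell, where 29.1% of all tested genes rose and 26.7% fell. DLK1, a non-canonical ligand, rose by 1.18 (adjusted p = 0.0002). DLL4, named after its values were seen, had 3, 6 and 8 counts in hESCs and rose by 1.40 (adjusted p = 0.011 from edgeR). Its call was lost in DESeq2 and without hESC replicate 1.

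Other genes of the HES and HEY families went both ways. HES2 rose from 2.44 ± 0.174 to 31.97 ± 1.24 CPM (SD, n = 3, log2 fold change 3.71, adjusted p = 1.9e-09 from edgeR), with 46, 44 and 50 counts in hESCs and 742, 667 and 738 in NMP-L cells. HES3 rose from 12.6 ± 2.44 to 51.5 ± 4.50 CPM (log2 fold change 2.03, adjusted p = 3e-07). Both encode bHLH repressors related to HES1 and were higher under every alternative tried. In all, 2 of 7 tested genes of this group rose and 3 fell, where 29.1% of all tested genes rose and 26.7% fell. The 3 that fell were HEY2 (-0.88), HEYL (-0.55) and NRARP (-0.41), which are known as direct Notch targets. They were named after their values were seen, and relative to GAPDH counts 4 genes of the group rose and 0 fell.

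**Figure D4:**
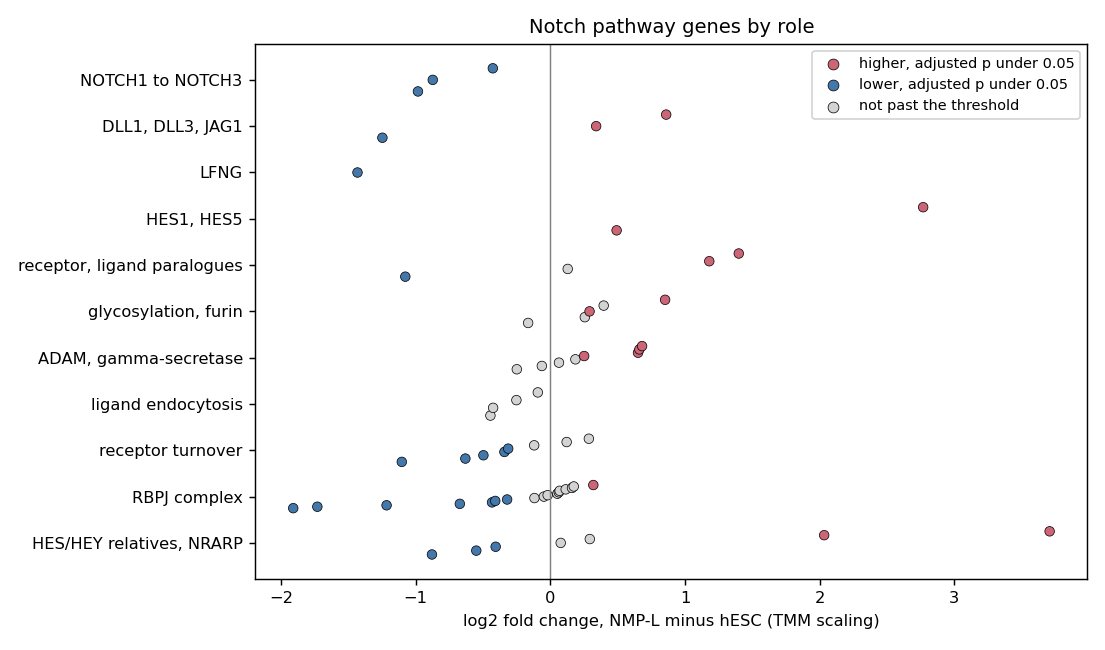
Log2 fold change (NMP-L minus hESC, horizontal axis, TMM scaling) of the tested Notch pathway genes by role (vertical axis), with colours for genes past the threshold in each direction. The 3 receptors and most called genes of the RBPJ complex and of receptor turnover lie to the left, and HES2 and HES5 lie farthest to the right (HES7, a lower bound, is not drawn).

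Around the clock, genes of the Wnt and FGF branches and genes of the presomitic mesoderm were looked up. Of 18 genes 10 were tested, 4 rose and 4 fell, where 55.8% of all tested genes were called. Relative to GAPDH counts 5 rose and 3 fell. Among cyclic genes of the Wnt branch, the feedback inhibitors NKD1 and DACT1 rose by 2.01 and 1.99 on the log2 scale (adjusted p = 1.9e-07 and 4.4e-08). AXIN2, a feedback inhibitor of the same branch named after its values were seen, fell, at -0.35 (adjusted p = 0.0081), but was at 0.21 relative to GAPDH counts (adjusted p = 0.11) and at -0.28 without NMP-L replicate 2 (adjusted p = 0.052). In the FGF branch the ERK phosphatases DUSP6 (5.62) and DUSP4 (1.28) rose, and SPRY4, an inhibitor of receptor tyrosine kinase signalling, fell (-1.45), each past the threshold under every alternative tried.

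Of 10 genes that act under the clock in presomitic mesoderm and somites, 7 were too low to be tested. Of the 3 tested, 2 fell and 1 did not pass the threshold, where 26.7% of all tested genes fell. TBX6, a transcription factor of presomitic mesoderm, fell from 5.66 ± 0.967 to 2.40 ± 0.160 CPM (SD, n = 3, log2 fold change -1.24, adjusted p = 0.00013 from edgeR), and TCF15, a somite factor, by 1.95 (adjusted p = 1.5e-05). MESP2, which sets somite borders, had between 8 and 11 counts in hESCs and between 11 and 14 in NMP-L cells (adjusted p = 0.7). MSGN1, another presomitic factor, had 0 counts in all hESC libraries and 7, 4 and 2 in NMP-L cells. MESP1, a factor of early mesoderm, had 1, 0 and 4 counts in hESCs and 6, 8 and 5 in NMP-L cells. It lay near the limit of detection, and replicate 3 had 0.209 CPM in both groups. MESP1, MESP2 and MSGN1 were named after their values were seen.

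ATOH1, a proneural gene of the kind that HES factors are known to repress, did not pass the expression filter. It had 8, 13 and 13 counts in hESCs and 2, 4 and 0 in NMP-L cells, so that the groups did not overlap but lay near the limit of detection.

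Markers of other cell types that use Notch signalling were summed. For 5 neuronal genes the sum was between 248 and 279 CPM in hESCs and between 139 and 164 CPM in NMP-L cells, with TUBB3 and DCX holding most of it and ELAVL4 under 1 CPM in both groups. For 5 endothelial genes it was between 42.6 and 47.0 CPM and between 21.6 and 23.3 CPM, most of it from TEK. CDH5 was at or under 3 counts in all 6 libraries. Of the 3 endothelial genes tested, TEK fell (log2 fold change -1.13) and TIE1 did not pass the threshold. ERG rose, from 0.452 to 1.03 CPM (log2 fold change 1.18, adjusted p = 0.014 from edgeR). For 5 genes of definitive endoderm the sum was between 1.902 and 3.027 CPM in hESCs and between 14.8 and 25.7 CPM in NMP-L cells. Most of it came from FOXA2, with SOX17 at or under 3 counts in all libraries. The part of such cells in the levels of the Notch genes was not tested.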

How the data were processed

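Polyadenylated RNA from 3 hESC and 3 NMP-L samples was read from one end (76 bp). The submitters' processing notes name cutadapt 1.9.1, STAR 2.5.2a, RSEM 1.3.0, DESeq2 1.12.3 and hg19, and the annotation and strand setting are not given in the sources used here. The deposited values are expected counts from RSEM, not normalized between libraries, and TPM, which the authors' RSEM run scaled by effective transcript length. Genes come by symbol only. 0 per-sample columns were left unused.

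Expected counts were rounded and tested in R 4.3.3 with edgeR 4.0.16 (filterByExpr with a minimum count of 10, TMM, glmQLFit and glmQLFTest for the group, all 6 libraries). Standard errors are log2 fold changes over the square root of F, without sign. For exact permutation tests a pseudocount of 0.1 was added to CPM before taking log2, TPM sums and shares were tested as they are, and TPM ratios as log2. They and the tables were made in Python 3.11.15 with scipy 1.17.1. A fold against a group at or under 3 counts in every library was computed against 3 counts per library. Alternatives were RLE factors, library size only, GAPDH or HPRT1 counts, DESeq2 1.42.0, other filters, replicate number as a block, a lowess correction (span 0.3) for GC content and transcript length (known for 83.34% of genes), each library left out, and a pseudocount of 1. The fit was tested on simulated data, and the study's methods describe no RNA-seq test. Gene positions are from GENCODE release 44 on GRCh37, the coordinates of hg19 (23876 symbols matched directly and 1008 through a RefSeq synonym). Promoters are from RefSeq (GRCh38.p14) and were matched to GRCh37, except the NOTCH2 window, which had no single exact match there and was not placed.

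Named genes were the 10 genes, and in each role of the other lists at most 3 rises and 3 falls that were past the threshold, at least 2-fold, at 1 CPM or more and without overlap, or else the most abundant gene, with NOTCH2NL and 4 markers. The genes and lists were chosen with earlier results of these data known. The labels call the replicates biological, but do not say from which passages or days they came, so p-values cover the spread between these 6 libraries only. No batch is given in the labels. Some results of the proneural list are not reported here.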

Additional observations from a re-analysis of the deposited data

How the results depend on the processing

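Of the 10 genes, 7 kept their direction and their side of the threshold under every alternative in which they were tested. The exceptions were JAG1 and HES1, described with their values above, and NOTCH2, which turned to 0.13 relative to GAPDH counts. The number of the 10 past the threshold lay between 8 (relative to HPRT1 counts, and with at least 10 counts in every library, where HES5 and HES7 were not tested) and 10. Of 39 single genes followed, 23 kept direction and side throughout. ADAM10, not past the threshold, turned to -0.23 relative to HPRT1 counts, to -0.13 with the GC and length correction, and left-out libraries gave values between -0.06 and 0.17. MIB1 turned to 0.12 relative to GAPDH counts and passed the threshold, lower, relative to HPRT1 counts (-0.73), with the GC and length correction (-0.60), without hESC replicate 2 (-0.64) and, at an adjusted p of 0.05, with no filter, with left-out libraries between -0.64 and -0.22. Relative to GAPDH counts AXIN2 turned to 0.21, HEYL to 0.01, NRARP to 0.16 and RFNG to 0.39 (past the threshold), and RFNG was 0.14 with the GC and length correction. Relative to HPRT1 counts MESP2 turned to -0.11, NOTCH4 to -0.18 and FAM120B to -0.07, and left-out libraries moved NOTCH4 between -0.12 and 0.30. With the GC and length correction 41 of the other pathway genes passed the threshold, against 27, while the number among all tested genes went from 8654 to 10076. In the proneural list 1 gene (ATOH1, lower) passed it with no filter beyond 1 count in total, and between 0 and 1 did with a library left out. The count of the clock list without a filter was 12 of 17, 6 higher and 6 lower. NOTCH2NL lost its call relative to HPRT1 counts and without hESC replicate 2, hESC replicate 3 or NMP-L replicate 3. The cause of these changes was not tested. The changes in family shares kept their sign in the alternatives run for them. These were the family limited to the 10 genes, expected counts in place of TPM, and each library left out. The shares and the TPM ratios were not recomputed with the GC and length correction.

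Replicate numbers are shared by the groups, but no source says that they pair the libraries. The correlations across genes of the deviations of same-numbered libraries were -0.342, -0.064 and -0.125, and 0 of 6 libraries correlated best with its own number. With the replicate block 7560 in place of 8654 genes passed the threshold, and all 10 genes did. At these depths the folds of HES5 and HES7 rest on 10 and 2 counts in hESCs in all.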

Other observations

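In hESCs the spread of the genes between libraries went with the GC content of their transcripts. The 3 genes with a GC content under 55%, NOTCH2, JAG1 and HES1, were all lowest in hESC replicate 2. The 5 genes with a GC content of 55% or more and over 100 counts on average, NOTCH1, NOTCH3, DLL1, DLL3 and LFNG (between 59.5% and 67.4%), were all lowest in hESC replicate 1 by CPM. For NOTCH1 replicates 1 and 2 were nearly equal (117.5 and 117.7 CPM). By TPM NOTCH1 was lowest in replicate 2 (24.9, against 25.83 in replicate 1). The pattern was noticed in these data and was not tested. With the correction for GC content and length, which assumes that most genes of a given GC content do not change, the falls of NOTCH1, NOTCH3, DLL3 and LFNG were smaller (-0.60, -0.72, -0.93 and -1.18) and the rises of DLL1 and HES5 larger (1.03 and 3.07). That of NOTCH2 was -0.46.

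In NMP-L cells replicate 2 had the lowest level of HES7 (24 counts), HES1 (260) and DLL1 (398), and also the lowest count of T (293). It had the highest level of NOTCH1, NOTCH2 and JAG1 among the NMP-L libraries. With 3 libraries no relation between these genes can be tested.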
